A study of Mus musculus with 10 samples.

Results

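Whole-lung messenger RNA of the HE group was set against that of the C group, gene by gene, in 3 libraries each. Every gene with a value in all 6 libraries was taken, which gave 17465 of the 19204 genes with a value in at least 1 library of the series, and the 14766 of them that passed a filter on low counts were tested. The series names wild-type mice, mice whose pulmonary hypertension was brought on by hypoxia, and such mice given aerobic exercise, but its labels do not say which prefix stands for which condition. Read after that title, C would be the untreated wild type, Hy the hypoxic mice (4 libraries) and HE the hypoxic mice that exercised, and the comparison asks what still differs from C under exercise. All 10 libraries carry the genotype WT, the tissue lung and one and the same treatment text, and neither strain, sex, age, oxygen level nor training schedule is given in the sources used here. Nothing states that libraries of a group came from separate mice, so p-values measure the spread between these libraries, which may be technical.

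In chronic hypoxia the small arteries of the lung constrict and their walls thicken, with smooth muscle reaching into vessels that normally have little. Endothelin drives constriction and growth of that muscle, nitric oxide and prostacyclin relax it, and signalling by bone morphogenetic proteins (BMP) through the type II receptor BMPR2 restrains it. Loss of BMPR2 is the best known inherited cause of pulmonary arterial hypertension in people.

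Libraries of C and HE held between 16560649 (C1) and 17804039 (HE3) estimated counts. Levels are given below as CPM, counts scaled to library size with TMM factors, and changes as the log2 ratio of HE to C from edgeR's quasi-likelihood fit of all 10 libraries. A gene was called where its Benjamini-Hochberg adjusted p over all tested genes was below 0.05. The range of that p over the alternative settings is given beside most named genes and includes a test against a 1.5-fold change, which is stricter by construction and is left out of the statements on lost calls. Lung identity was clear in each library, with Sftpc, the surfactant protein of alveolar type 2 cells, between 11310 and 17430 CPM, and Pecam1, an endothelial adhesion molecule, between 978 and 1232 CPM in C and HE. Heart muscle genes varied among libraries of the same group: the mean log2 deviation of the 24 tested cardiac muscle genes was 2.21 in C1 against -3.46 and -1.25 in C2 and C3, and 1.97 in HE3 against 0.65 and -0.25 in HE1 and HE2. A fit of the other 7 libraries, which drops from each group the one with most cardiac muscle RNA (C1, Hy4 and HE3), is called the 7-library fit below. In whole tissue, fewer cells of a type and less RNA per cell cannot be told apart.

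The C libraries were tabulated with another gene set. They had values for 18713 genes and the HE libraries for 17956. The sets shared 17465, and 538 of the shared genes were at 0 in all 3 C libraries and 451 in all 3 HE libraries. This split coincides with the group, so no difference between HE and C can be told apart from it.

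Of the 14766 tested genes, 3013 (20.4%) were called, 1734 higher in HE (11.7%) and 1279 lower (8.66%). The C and HE libraries did not overlap in 7627 genes (51.7%), and 928 called genes (6.28%) differed at least 2-fold, 614 upward (4.16%) and 314 downward (2.13%). The median log2 fold change of all tested genes was 0.02. The share called moved strongly with base composition. In the lowest of 5 equal classes of GC content in the longest transcript (31.0% to 44.0%), 65 were higher and 704 lower in HE, and their median log2 ratio was -0.40. In the highest class (55.7% to 72.8%), 932 were higher and 14 lower, and the median was 0.48. Across 14590 genes with a transcript sequence, Spearman's rho of the log2 fold change was 0.55 with GC content and -0.27 with transcript length. The points share the same 6 libraries, so these are descriptions. For HE against Hy, which were tabulated together, the same correlations were -0.04 and -0.09. Each C library stood apart from each HE library in this respect: the median deviation of the genes of the highest class lay between -0.36 and -0.33 in C and between 0.08 and 0.18 in HE. The 4 Hy libraries varied more, at 0.17, 0.15, -0.01 and 0.34. Libraries tabulated together also differed by transcript length. In the class of shortest transcripts Hy3 was at -0.325, below C1, C2 and C3 (-0.14, -0.21 and -0.21). Hy1, Hy2 and Hy4 were at 0.27, 0.14 and 0.21 there. What brought about the trend was not tested, and it cannot be told apart from group or tabulation.

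**Figure D1:**
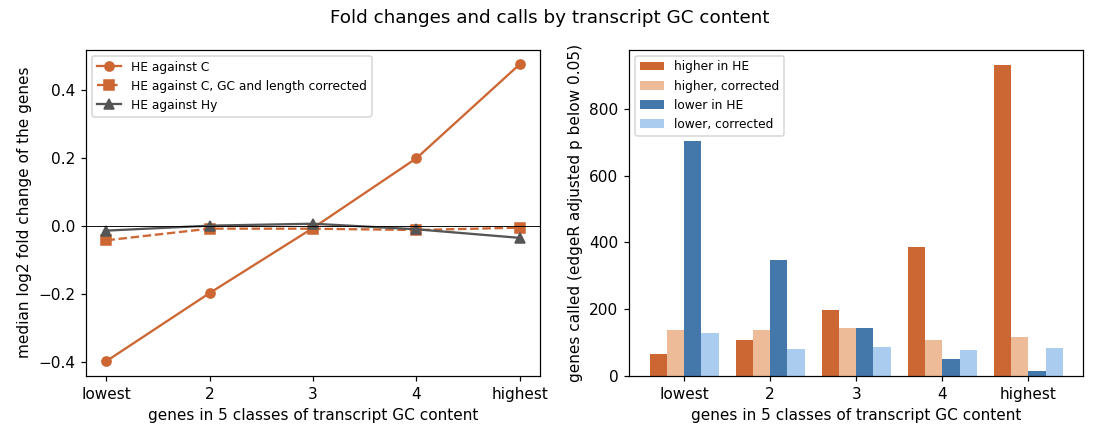
Left, median log2 fold change of the genes in each of 5 classes of transcript GC content, for HE against C, the same after correction for GC content and length, and HE against Hy. Right, number of genes called higher or lower in HE than in C in each class, without and with the correction. The uncorrected medians climb from -0.40 to 0.48, while the corrected medians and those of HE against Hy stay near 0.

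After offsets had removed the smooth trend with GC content and length in each library, 1107 of 14590 genes were called (7.59%), 647 higher (4.43%) and 460 lower (3.15%), and 397 at least 2-fold (2.72%). Of the 1107, 881 were called in both fits, none of them in opposite directions, and 226 with the correction alone. Another 2070 genes were called without it alone. The correction was chosen after the trend had been seen. It also removes any true difference that follows base composition, so both fits are given below, the first as the main result.

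The called contractile genes of smooth muscle were all higher in HE. Of the 18 tested, 6 rose and 0 fell (33.33% called, against 20.4% of all tested genes). Their median log2 ratio was 0.52 (0.33 after correction, when 4 rose). Tagln, which encodes the actin-binding protein transgelin (chromosome 9, positions 45929628 to 45936058), measured 209, 156 and 144 CPM in C, 351, 381, 261 and 444 CPM in Hy and 445, 335 and 318 CPM in HE. Every HE library lay above every C library (log2 ratio 1.11 with SE 0.23, edgeR adjusted p = 0.0105), and the corrected change was 0.89 (adjusted p = 0.0124). Without C3 the Tagln call was lost (0.0511), in a span of 4.55e-05 to 0.133 across alternatives. Myh11, the smooth muscle myosin heavy chain (chromosome 16, positions 14194527 to 14292188), measured 176, 94.4 and 105 CPM in C, 276, 361, 266 and 515 CPM in Hy and 298, 327 and 290.1 CPM in HE. Again the groups did not overlap, although C1 was above C2 and C3 (log2 ratio 1.28 with SE 0.29, edgeR adjusted p = 0.0153). Its corrected change was 1.21 (adjusted p = 0.0362). The Myh11 call was lost without C2 (0.0625), without C3 (0.0655) and without HE2 (0.055), and alternatives spanned 0.000248 to 0.136. Lmod1 (leiomodin, an actin filament nucleator), Tpm2 (a tropomyosin) and Myl9 (the regulatory myosin light chain) rose by 1.51, 1.19 and 1.32 on the log2 scale (edgeR adjusted p = 0.0168, 0.0159 and 0.0159). Lmod1 and Tpm2 remained called after correction (adjusted p = 0.0354 and 0.0248), and alternatives spanned 0.000507 to 0.127 and 0.000443 to 0.159. Each of these 3 failed without C2 (0.0682, 0.0634 and 0.0655), without C3 (0.0667, 0.0645 and 0.0654) or without HE2 (0.0665, 0.0579 and 0.0602), and that of Myl9 also without HE1 (0.0531). Myl9 was not called after correction (adjusted p = 0.0536). Smtn, the list member with the smallest p, rose from 90.2 ± 4.05 CPM in C to 151 ± 14.85 CPM in HE. Its log2 ratio was 0.745 with SE 0.127 (edgeR adjusted p = 0.00534). After correction the Smtn change was 0.176 and the call was lost (adjusted p = 0.381). That call was also lost without C1, Hy4 and HE3 (0.0518), and alternatives spanned 3.64e-06 to 0.569. Acta2, smooth muscle actin, measured 237, 122 and 124 CPM in C and 281, 179.8 and 275 CPM in HE and was not called (log2 fold change 0.61, edgeR adjusted p = 0.163). Without C1, the C library with the highest Acta2 and the highest cardiac muscle level, its adjusted p was 0.045, and alternatives spanned 0.045 to 0.913.

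Ppp1r14a, an inhibitor of the phosphatase that relaxes smooth muscle (chromosome 7, positions 29289320 to 29293390), gave a firmer difference. It measured 40.6, 43.5 and 45.7 CPM in C, 203, 252, 123 and 280.4 CPM in Hy and 273, 286 and 181 CPM in HE, and the highest C library stood well below the lowest of the other groups. The change (log2 ratio 2.51 with SE 0.29, edgeR adjusted p = 0.00106) was 1.59 (adjusted p = 0.000786) after correction, and the gene was called in every alternative, with adjusted p 1.06e-15 to 0.019. Of 15 tested pericyte genes, 3 rose (Cspg4, Notch3 and Higd1b) and 0 fell, and 0 were called after correction. The share called without correction (20.0%) was near that of all tested genes (20.4%). The median of the list was 0.35, and 0.20 corrected. Cspg4, the NG2 proteoglycan, went from 24.5 ± 2.96 CPM in C to 51.4 ± 8.27 CPM in HE (log2 fold change 1.07, edgeR adjusted p = 0.0283), and Notch3, a mural cell receptor, from 106 ± 14.1 CPM in C to 238 ± 19.9 CPM in HE (1.16, adjusted p = 0.0371). Cspg4 and Notch3 lost their calls without any 1 of the 6 C and HE libraries (adjusted p up to 0.0959 and 0.113), and Higd1b without any but HE3 (up to 0.0636).

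Among 19 tested fibroblast genes 3 rose and 1 fell, a share (21.05%) near the 20.4% of all tested genes. Of the 3, 2 were called under every alternative that tested them. Tcf21, a transcription factor of lung lipofibroblasts (chromosome 10, positions 22817263 to 22820143), measured 52.6, 78.2 and 63.2 CPM in C, 232, 239, 136 and 157 CPM in Hy and 323, 295 and 285 CPM in HE. All HE libraries exceeded all Hy libraries, which exceeded all C libraries. HE against C gave a log2 ratio 2.22 with SE 0.24, edgeR adjusted p = 0.000669, and HE against Hy was not called (log2 fold change 0.66, edgeR adjusted p = 0.739). The corrected change was 2.13 (adjusted p = 0.000502), with adjusted p 1.2e-17 to 0.0249 across alternatives. Col13a1, a membrane collagen that marks alveolar fibroblasts (chromosome 10, positions 61838234 to 61979206), measured 75.8, 89.0 and 78.9 CPM in C, 196, 215, 218 and 214 CPM in Hy and 276, 221 and 171 CPM in HE. Groups C and HE did not overlap (log2 ratio 1.45 with SE 0.17, edgeR adjusted p = 0.00102). Its corrected change was 0.94 (adjusted p = 0.0104), and alternatives spanned 1.34e-13 to 0.0492. Tcf21 and Col13a1 each overlap another annotated gene, so the fits of genes without an overlapping gene did not test them. Counts of overlapping genes are uncertain where strand is not known. Mfap4, a microfibril protein bound to elastic fibres (chromosome 11, positions 61485431 to 61488708), measured 453, 856 and 563 CPM in C, 592, 2136, 1098 and 2039 CPM in Hy and 3030, 2197 and 2795 CPM in HE. The lowest HE library lay above the highest Hy library (log2 ratio 2.10 with SE 0.44, edgeR adjusted p = 0.0119). Its corrected change was 1.82 (adjusted p = 0.0364), and the call was lost without C3 (0.0547) and in the 7-library fit (0.0992), and alternatives spanned 1.42e-05 to 0.204. Col3a1, the main collagen beside type I in vessel walls, measured 896, 1044 and 636 CPM in C and 332, 193 and 466 CPM in HE. It was called by a small margin (log2 ratio -1.38 with SE 0.44, edgeR adjusted p = 0.0499), which was lost after correction (0.0767) and without C1 (0.108), C2 (0.14), C3 (0.0781), HE1 (0.122), HE2 (0.159) or HE3 (0.0527), and alternatives spanned 0.00523 to 0.304.

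Matrix genes went in both directions. Of 27 tested collagens 4 rose and 1 fell, against 1 and 1 after correction. Of 23 tested matrix proteases and their inhibitors 0 rose and 5 fell, against 2 falling after correction. The shares called without correction (18.52% of collagens and 21.74% of proteases and inhibitors) were near the 20.4% of all tested genes. Mmp3, a stromelysin (chromosome 9, positions 7445822 to 7455975), measured 8.08, 9.50 and 4.43 CPM in C, 5.49, 3.01, 4.56 and 3.51 CPM in Hy and 1.90, 2.06 and 1.88 CPM in HE. HE libraries lay below all others (log2 ratio -1.91 with SE 0.33, edgeR adjusted p = 0.00575; corrected -1.80 (adjusted p = 0.0126)). The Mmp3 call was lost in the 7-library fit (0.0731), and alternatives spanned 5e-06 to 0.13. Eln, which encodes elastin, measured 395, 417 and 296 CPM in C, 452, 408, 533 and 468 CPM in Hy and 284, 186 and 301 CPM in HE. C and HE overlapped and Eln was not called (log2 ratio -0.52 with SE 0.20, edgeR adjusted p = 0.095), but after correction it was lower in HE, at -0.98 (adjusted p = 0.024), and DESeq2 called it as well (0.0395), and alternatives spanned 0.024 to 1. Col1a1, the type I collagen chain, was not called (-0.46 on the log2 scale, edgeR adjusted p = 0.203), but was lower with the correction on C and HE alone (0.0373), and alternatives spanned 0.0373 to 1.

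**Figure D2:**
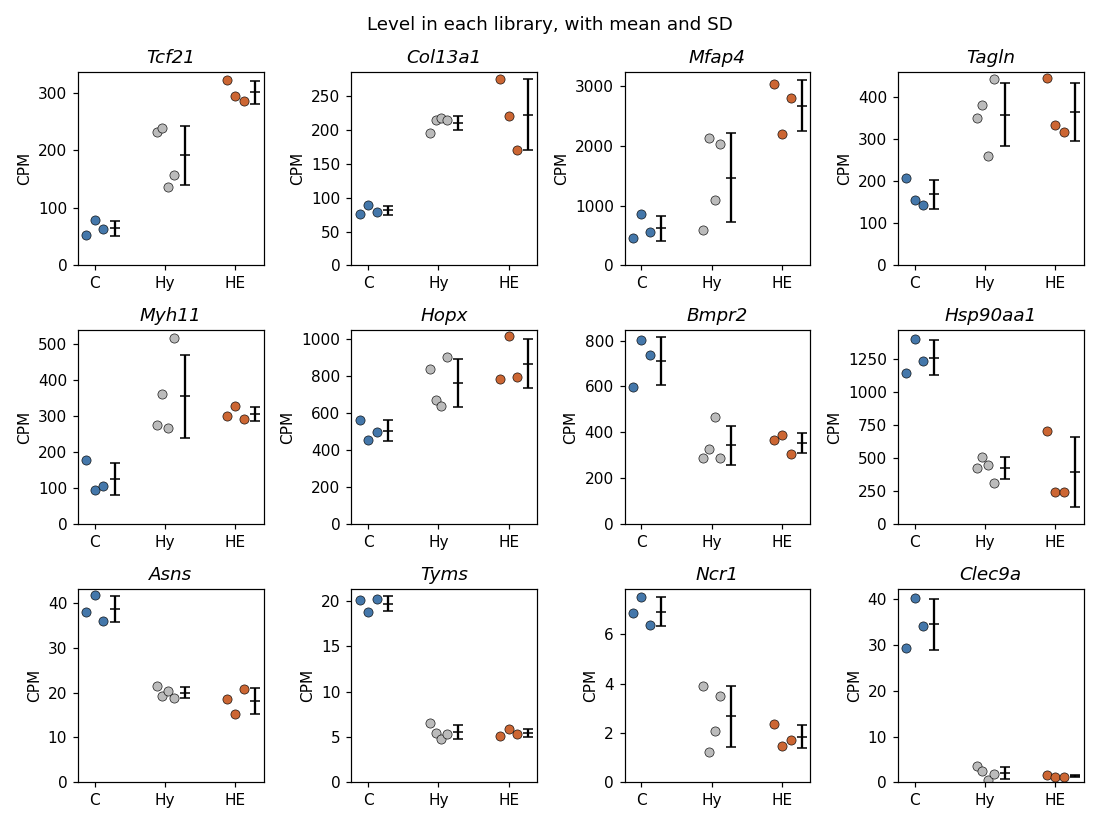
Level of 12 genes in each library in TMM-scaled CPM on axes that start at 0, with the group mean and SD as bars beside the points. C and HE points do not overlap in any of the 12 panels, and Tcf21 and Mfap4 lie higher in every HE library than in every Hy library.

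Receptors of the BMP and TGF-beta family changed in both directions, and the share of called genes was near that of all tested genes (20.4%), at 23.1% of the BMP list and 20.0% of the TGF-beta and activin list. Of 26 tested genes of BMP signalling 4 fell, all of them receptors (Bmpr2, Bmpr1a, Acvr1 and Acvr2a), and 2 rose, the target genes Id1 and Id3. After correction 1 fell (Acvr2a) and 0 rose. Acvr1, Id1 and Id3 each lost their call without C1 (0.0567, 0.115 and 0.0516), and Acvr1 and Id1 also without C2 (0.0729 and 0.112), C3 (0.0501 and 0.135), HE2 (0.0712 and 0.136) or HE3 (0.054 and 0.0759). Bmpr2 (chromosome 1, positions 59764279 to 59878081) measured 597, 803 and 735 CPM in C, 289, 329, 466 and 288 CPM in Hy and 367, 388 and 306 CPM in HE. The HE values lay below every C value and inside the range of Hy (log2 ratio -1.01 with SE 0.21, edgeR adjusted p = 0.0113). The corrected change was -0.55 (adjusted p = 0.074), and the call was also lost in the 7-library fit (0.0682), and alternatives spanned 5.46e-05 to 0.18. Bmpr1a, a type I receptor, fell from 103 ± 10.4 CPM in C to 56.6 ± 6.94 CPM in HE and Acvr2a, a type II receptor for activins, from 52.7 ± 9.40 CPM in C to 25.1 ± 2.32 CPM in HE (edgeR adjusted p = 0.00929 and 0.0122). Their corrected changes were -0.46 (adjusted p = 0.0607) and -0.63 (adjusted p = 0.035), and alternatives spanned 4.72e-05 to 0.297 and 0.000238 to 0.163. Acvr2a lost its call without C2 (0.051). Bmpr1a lost it in the 7-library fit (0.0823). Acvrl1, the endothelial type I receptor ALK1, was not called (-0.10, edgeR adjusted p = 0.677). Of 25 tested TGF-beta and activin genes 2 rose and 3 fell. Tgfbr1, the type I TGF-beta receptor (chromosome 4, positions 47353222 to 47414926), measured 67.0, 69.3 and 63.4 CPM in C, 32.0, 30.1, 51.0 and 24.1 CPM in Hy and 27.8, 27.1 and 30.6 CPM in HE. It fell without overlap between C and HE (log2 ratio -1.22 with SE 0.23, edgeR adjusted p = 0.00789; corrected -0.82 (adjusted p = 0.00884)), but was not called in the 7-library fit (0.0501), and alternatives spanned 2.02e-05 to 0.0854. Acvr1b, the activin type I receptor ALK4, went the other way, at 36.7, 43.6 and 41.0 CPM in C, 70.1, 76.6, 79.8 and 80.6 CPM in Hy and 70.3, 75.2 and 65.2 CPM in HE. No C library reached the lowest HE library (log2 ratio 0.80 with SE 0.11, edgeR adjusted p = 0.0028). Its corrected change was 0.65 (adjusted p = 0.0086), and alternatives spanned 3.55e-08 to 0.212.

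Of 29 tested genes of endothelin, nitric oxide and prostanoid signalling 1 rose and 3 fell (13.79% called, against 20.4% of all tested genes). Ednrb, the endothelin receptor B (chromosome 14, positions 103814615 to 103844508), measured 124, 126 and 115 CPM in C, 60.1, 39.7, 43.3 and 59.2 CPM in Hy and 37.0, 98.2 and 51.3 CPM in HE. It lay below C in each HE library, but HE2 was close to C (log2 ratio -0.97 with SE 0.31, edgeR adjusted p = 0.0494). That call was lost after correction (corrected change -0.69 (adjusted p = 0.207)) and with no filter (0.0505), in the fit of C and HE alone (0.0594), without C1 (0.109), without C2 (0.118), without C3 (0.106), without Hy1 (0.0545), without Hy2 (0.0583), without Hy4 (0.0549), without HE1 (0.129), without HE3 (0.139) and in the 7-library fit (0.249), and alternatives spanned 0.011 to 0.53. Pde5a, the cyclic GMP phosphodiesterase targeted by sildenafil, fell from 293 ± 67.5 CPM in C to 152 ± 30.0 CPM in HE (log2 ratio -0.94 with SE 0.21, edgeR adjusted p = 0.0155). Its corrected change was -0.71 (adjusted p = 0.0969), and the Pde5a call was also lost without C2 (0.0623), C3 (0.058) or HE2 (0.0641), and alternatives spanned 0.000275 to 0.261. Ptgis, prostacyclin synthase, rose from 115 ± 20.0 CPM in C to 187 ± 19.7 CPM in HE (log2 ratio 0.70 with SE 0.21, edgeR adjusted p = 0.0439). The corrected change was 0.29 (adjusted p = 0.488), and no alternative that left out a C or HE library called it (adjusted p 0.0651 to 0.138, and alternatives spanned 0.0124 to 0.829). Edn1 (endothelin 1), Ednra (its receptor A) and Nos3 (endothelial nitric oxide synthase) were not called, with log2 fold changes of -0.21, -0.09 and 0.80 (edgeR adjusted p = 0.641, 0.765 and 0.156). Ednra changed sign with the correction (0.07). Kcnk3, a potassium channel that sets the resting potential of arterial muscle, was not called either (0.89, adjusted p = 0.0689). It was called with DESeq2 (0.0307), in the fit of C and HE alone (0.0445, with the replicate block 0.0393), without Hy3 (0.0426) and without Hy4 (0.0423), and alternatives spanned 0.0307 to 0.526. None of the 20 tested potassium channel genes was called in the main fit of edgeR.

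Of 24 tested targets of hypoxia-inducible factor outside glycolysis 1 rose and 4 fell (after correction 0 and 2). The share called without correction (20.83%) was near that of all tested genes (20.4%). Vegfa, the main angiogenic growth factor, measured 1050, 1227 and 1075 CPM in C and 1125, 1335 and 1185 CPM in HE, with no call (log2 fold change 0.12, edgeR adjusted p = 0.582). Hmox1, the heme oxygenase, fell from 67.1 ± 1.56 CPM in C to 40.5 ± 5.17 CPM in HE (log2 ratio -0.73 with SE 0.22, edgeR adjusted p = 0.0412; corrected -1.0, adjusted p = 0.0261). Its call did not survive leaving out any 1 of the 6 C and HE libraries (adjusted p 0.0691 to 0.139, and alternatives spanned 0.0026 to 0.644). Of 19 tested genes of glucose uptake and glycolysis 5 rose and 0 fell (26.32%), with a median of 0.32, and 0 were called after correction. Aldoa, aldolase A, measured 477, 408 and 413 CPM in C and 846, 781 and 949 CPM in HE. The groups did not overlap (log2 ratio 0.99 with SE 0.18, edgeR adjusted p = 0.00695), and the corrected change was 0.53 (adjusted p = 0.137), with no call in the 7-library fit (0.0662), and alternatives spanned 3.29e-06 to 0.414. Slc2a1, the glucose transporter GLUT1, measured 23.7, 17.2 and 16.4 CPM in C, 35.5, 31.5, 35.2 and 44.8 CPM in Hy and 19.9, 22.5 and 29.3 CPM in HE. HE overlapped C (log2 ratio 0.32 with SE 0.20, edgeR adjusted p = 0.268).

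In the endothelial lists the share called was 16.7% for general capillary, 20.0% for aerocyte, 14.3% for arterial and 25.0% for venous genes, near the 20.4% of all tested genes. Of general capillary genes 1 of 18 rose and 2 fell, of aerocyte genes 2 of 15 rose and 1 fell, of arterial genes 2 of 14 rose, and of venous genes 3 of 12 fell. Tbx2, a transcription factor gene on the aerocyte list (chromosome 11, positions 85832615 to 85841948), measured 204, 272 and 211 CPM in C, 491, 870.5, 695 and 1056 CPM in Hy and 864, 914 and 698 CPM in HE. It was higher in each HE library (log2 ratio 1.85 with SE 0.27, edgeR adjusted p = 0.0029; corrected 1.04 (adjusted p = 0.0164)), and with the correction the 7-library fit no longer called it (0.121), and alternatives spanned 5.99e-10 to 0.121. Mgp, matrix Gla protein, an inhibitor of calcification and of BMP ligands on the arterial list (chromosome 6, positions 136872435 to 136875823), measured 399, 478 and 281 CPM in C, 811, 835, 462 and 499.7 CPM in Hy and 1116, 1214 and 997 CPM in HE. All HE libraries lay above all C and Hy libraries (log2 ratio 1.52 with SE 0.28, edgeR adjusted p = 0.00667; corrected 1.24 (adjusted p = 0.02)). The Mgp call was lost in the 7-library fit (0.0578), and alternatives spanned 1.08e-06 to 0.0775. Lyve1, a hyaluronan receptor of lymphatic vessels, veins and some interstitial macrophages (chromosome 7, positions 110850607 to 110862953), measured 389, 454 and 375 CPM in C, 253, 73.5, 60.5 and 52.8 CPM in Hy and 47.7, 132 and 61.4 CPM in HE. The HE values lay far below C (log2 ratio -2.34 with SE 0.60, edgeR adjusted p = 0.0242; corrected -2.16 (adjusted p = 0.0557)). The call was lost without C1 (0.0565), without C2 (0.0684), without C3 (0.0614), without HE1 (0.0833), without HE3 (0.078) and in the 7-library fit (0.128), and alternatives spanned 0.00306 to 0.201. Other lymphatic genes did not share this: of the 10 tested, Lyve1 alone fell and Thy1 alone rose (lost without C3, 0.0501, and in the 7-library fit, 0.0809). Apln, an endothelial peptide ligand, was not called (-0.69, edgeR adjusted p = 0.167), but without HE3 its adjusted p was 0.042, and alternatives spanned 0.042 to 0.837.

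In the epithelium, 4 of 18 tested alveolar type 1 genes rose and 1 fell (27.78% called, against 20.4% of all tested genes). By contrast, 0 of 20 alveolar type 2, 0 of 20 club and 0 of 21 ciliated cell genes were called. Hopx, a homeodomain protein of type 1 cells (chromosome 5, positions 77086986 to 77115123), measured 562, 451 and 498 CPM in C, 837, 667, 634 and 904 CPM in Hy and 785, 1017 and 795 CPM in HE. It rose without overlap (log2 ratio 0.78 with SE 0.18, edgeR adjusted p = 0.0172; corrected 0.80 (adjusted p = 0.0175)), but was not called without C2 (0.0717), without C3 (0.0665), without HE2 (0.0701) and in the 7-library fit (0.069), and alternatives spanned 0.000378 to 0.463. Igfbp2, an insulin-like growth factor binding protein of mature type 1 cells, measured 175, 248 and 95.5 CPM in C, 422, 246, 366 and 260.2 CPM in Hy and 649.6, 727 and 716 CPM in HE. HE lay above Hy in every library (log2 ratio 2.01 with SE 0.32, edgeR adjusted p = 0.00455). After correction it measured 1.15 (adjusted p = 0.0965), with no call in the 7-library fit (0.0578), and alternatives spanned 1.66e-08 to 0.289. Ager, the receptor for advanced glycation end products, rose by 0.72 (edgeR adjusted p = 0.0252), with a corrected change of 0.12 (adjusted p = 0.689), and alternatives spanned 0.000581 to 0.966. Ager lost its call without C1 (0.0923), C2 (0.0517), C3 (0.1), HE2 (0.0969) or HE3 (0.0563). Sftpc and Scgb1a1, the club cell secretory protein, were not called, at -0.21 and 0.50 on the log2 scale (edgeR adjusted p = 0.668 and 0.451). Sftpc was called with the correction on C and HE alone (0.0308), and its alternatives spanned 0.0308 to 1. Scgb1a1 changed sign with the correction (-0.02). Genes of sodium and water transport showed both directions, with 4 of 18 tested higher and 3 lower (38.89% called, against 20.4% of all tested genes). After correction 1 was higher and 1 lower, while 7.59% of all genes were called. Which cells of the lung held the RNA of these genes was not tested. Fxyd1, phospholemman, a regulator of the sodium pump, rose from 51.6 ± 4.22 CPM in C to 125 ± 3.23 CPM in HE (log2 ratio 1.27 with SE 0.25, edgeR adjusted p = 0.00952; corrected 0.50 (adjusted p = 0.0355), with no call in the 7-library fit (0.0768), and alternatives spanned 4.33e-05 to 0.204).

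The called genes of natural killer (NK) cells and dendritic cells were all lower in HE. Of 17 tested NK genes 6 fell and 0 rose (35.29% called, against 20.4% of all tested genes). Their median log2 ratio was -1.26 (-1.20 after correction, when 4 fell). In 13 of the 17 every HE library lay below every C library, against 25% of all tested genes. The mean log2 deviation of the list was 0.52, 0.67 and 1.06 in C and -0.31, -0.48 and -1.02 in HE. Ncr1, the activating receptor NKp46 (chromosome 7, positions 4337715 to 4345184), measured 6.86, 7.51 and 6.36 CPM in C, 3.88, 1.24, 2.06 and 3.51 CPM in Hy and 2.36, 1.45 and 1.71 CPM in HE. It fell without overlap (log2 ratio -1.90 with SE 0.40, edgeR adjusted p = 0.0119; corrected -1.76 (adjusted p = 0.024)). The Ncr1 call was lost without HE2 (0.0548) and in the 7-library fit (0.0962), and alternatives spanned 9.18e-05 to 0.151. Gzma, granzyme A, measured 19.1, 15.7 and 23.7 CPM in C, 20.2, 5.78, 8.99 and 14.9 CPM in Hy and 8.16, 6.72 and 3.42 CPM in HE. HE lay below C, while Hy1 reached into the range of C (log2 ratio -1.68 with SE 0.45, edgeR adjusted p = 0.0276; corrected -1.62 (adjusted p = 0.0487)). Its call was lost without C1 (0.0657), without C2 (0.0564), without C3 (0.092), without HE2 (0.0806), without HE3 (0.0817) and in the 7-library fit (0.163), and alternatives spanned 0.00154 to 0.203. Prf1 (perforin), Il2rb (a receptor chain for interleukins 2 and 15) and Gzmb (granzyme B) fell by 1.26, 1.02 and 0.98 on the log2 scale (edgeR adjusted p = 0.0418, 0.0287 and 0.0345). These 3 lost their calls without any 1 of the C or HE libraries (adjusted p up to 0.119, 0.107 and 0.103).

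Of 17 tested dendritic cell genes 3 fell and 0 rose, a share (17.65%) no larger than the 20.4% of all tested genes. Their median was -0.74 (-0.81 and 4 falling after correction). Clec9a, the receptor for dead cells on cross-presenting dendritic cells (chromosome 6, positions 129408862 to 129424764), measured 29.3, 40.3 and 34.2 CPM in C, 3.58, 2.59, 0.499 and 1.82 CPM in Hy and 1.61, 1.27 and 1.16 CPM in HE. HE held a small fraction of the C level (log2 ratio -4.67 with SE 0.52, edgeR adjusted p = 0.000801; corrected -4.43 (adjusted p = 0.00093)), in every alternative, with adjusted p 2.48e-20 to 0.038. Clec9a overlaps another annotated gene, so the alternatives restricted to genes without an overlapping gene did not test it. Ccl22, a chemokine of mature dendritic cells (chromosome 8, positions 94745684 to 94751388), measured 5.35, 3.67 and 5.17 CPM in C, 4.12, 1.30, 1.56 and 1.39 CPM in Hy and 0.690, 0.969 and 1.21 CPM in HE. HE was lowest throughout (log2 ratio -2.29 with SE 0.48, edgeR adjusted p = 0.0119; corrected -2.39 (adjusted p = 0.0132)). It lost its call without HE2 (0.0507) and in the 7-library fit (0.0768), and alternatives spanned 0.000131 to 0.0919. Chemokines and their receptors as a list had 0 of 32 higher and 4 lower (12.5% called), Ccl17, Ccl22 and Ackr1 among them, with a median of -0.57. Ccl17 lost its call without any 1 of the C or HE libraries (adjusted p up to 0.133) and Ackr1 without HE2 (0.0515) and in the 7-library fit (0.0865). Ackr1, also on the venous list, was low in both groups, with means of 0.968 CPM in C and 0.134 CPM in HE. Osmr, the oncostatin M receptor, fell from 119 ± 33.0 CPM in C to 56.7 ± 3.83 CPM in HE and Il13ra1, a chain of the interleukin 13 receptor, from 53.7 ± 10.3 CPM in C to 26.2 ± 4.30 CPM in HE (edgeR adjusted p = 0.00868 and 0.0042). Their corrected changes were -0.83 (adjusted p = 0.0277) and -0.69 (adjusted p = 0.0242), the 7-library fit did not call Osmr (0.0596), and alternatives spanned 2.87e-05 to 0.138 and 2.73e-07 to 0.119. None of 18 alveolar macrophage, 14 B cell and 14 red cell genes was called, and 1 of 21 interstitial macrophage and monocyte genes rose and 1 fell.

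Neutrophil genes were mostly not called, with 1 of 17 higher (5.88%, against 20.4% of all tested genes called). That gene, G0s2, lost its call without any 1 of the C or HE libraries (adjusted p up to 0.119). S100a8, a subunit of the neutrophil protein calprotectin (chromosome 3, positions 90669071 to 90670034), measured 11.1, 8.68 and 5.46 CPM in C, 40.4, 286, 20.5 and 429.6 CPM in Hy and 16.2, 17.0 and 17.7 CPM in HE. HE lay above C in every library, with a much narrower spread than in Hy (log2 ratio 1.01 with SE 0.94, edgeR adjusted p = 0.475). In the fit of C and HE alone, which leaves the spread of Hy out, S100a8 was called (0.0171), and alternatives spanned 0.0171 to 1. Called antigen presentation genes were mostly higher: 9 of 24 rose and 1 fell (41.67% called, against 20.4% of all tested genes), with a median of 0.54. After correction 2 rose and 1 fell. The list's median transcript GC content was 54.43%, inside the fourth of the 5 GC classes, where 13.23% of genes were called higher and 1.714% lower without correction. Tap2, a subunit of the peptide transporter for class I (chromosome 17, positions 34204479 to 34216321), measured 73.3, 70.8 and 73.7 CPM in C and 160.3, 154 and 117 CPM in HE (log2 ratio 0.98 with SE 0.14, edgeR adjusted p = 0.0033; corrected 0.62 (adjusted p = 0.0303), and alternatives spanned 1.23e-07 to 0.0889). H2-Q6, a nonclassical class I gene with close copies, measured 31.3, 68.6 and 37.1 CPM in C, 215, 271, 266 and 424 CPM in Hy and 534, 213 and 136 CPM in HE. HE1 was far above HE2 and HE3 (log2 ratio 2.69 with SE 0.51, edgeR adjusted p = 0.00807; with the replicate block on C and HE alone 0.0533, and alternatives spanned 3.58e-07 to 0.0736). B2m, the class I light chain (chromosome 2, positions 122147687 to 122153082), was the one that fell, at 1284, 1583 and 1416 CPM in C, 705, 650.5, 554 and 605 CPM in Hy and 892, 698 and 495 CPM in HE. HE did not reach C (log2 ratio -1.04 with SE 0.21, edgeR adjusted p = 0.0103; corrected -0.95 (adjusted p = 0.0404)), and B2m lost its call in the 7-library fit (0.0682), and alternatives spanned 1.14e-05 to 0.157.

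**Figure D3:**
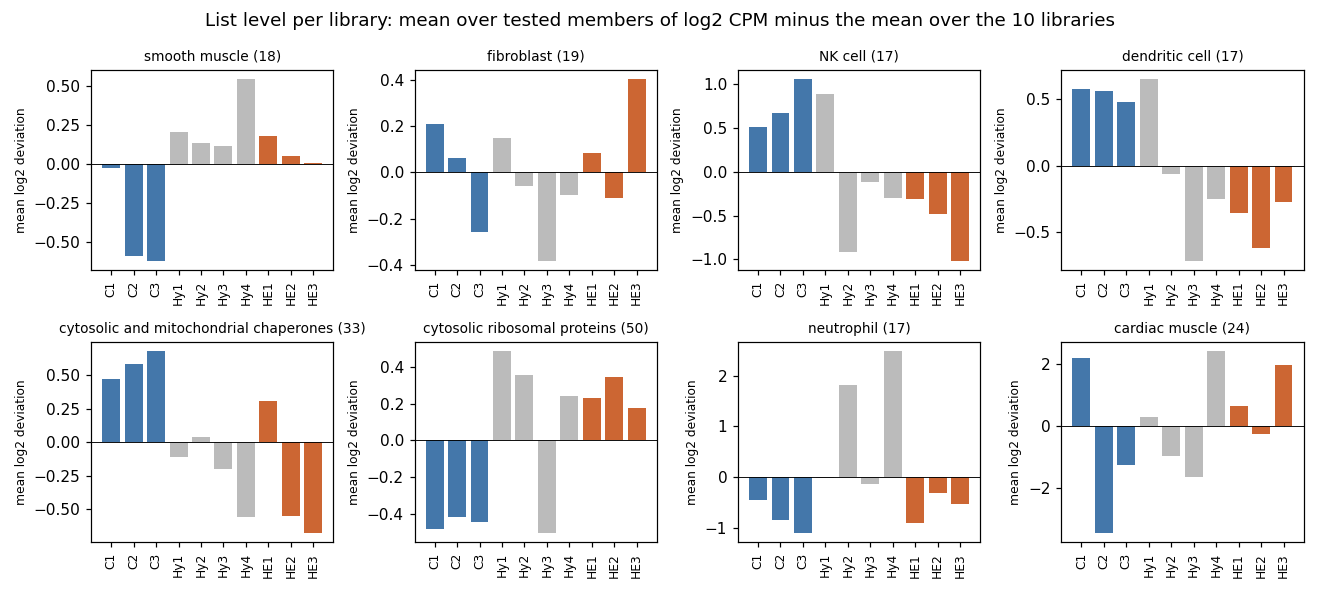
Level of 8 gene lists in each library, as the average deviation of its tested members from their own means over the 10 libraries on the log2 CPM scale (number of members in parentheses). NK cell and dendritic cell lists are positive in the 3 C libraries and negative in the 3 HE libraries, and cardiac muscle varies between libraries of every group.

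Called protein folding genes were lower in HE with 1 exception. Of 33 tested cytosolic and mitochondrial chaperone genes 14 fell and 1 rose (Hsf1, the heat shock transcription factor, lost without any 1 of the C or HE libraries but HE3, adjusted p up to 0.104), with a median of -0.66. After correction 3 fell and 0 rose, with a median of -0.62. HE1 stood apart from HE2 and HE3: the list's mean log2 deviation was 0.47, 0.59 and 0.68 in C and 0.31, -0.55 and -0.68 in HE. Of 30 tested genes of folding in the endoplasmic reticulum and the unfolded protein response, 6 fell and 0 rose, against 2 and 0 after correction. The shares called without correction were 45.45% of the chaperone list and 20.0% of the endoplasmic reticulum list, against 20.4% of all tested genes. Promoters of 3 genes are shown because each holds the textbook motif of one stress pathway, respectively the heat shock element, the endoplasmic reticulum stress element and the CEBP-ATF site. They are the 250 bases before the start of Hspd1 (chr1:55087933-55088182), Canx (chr11:50325674-50325923) and Asns (chr6:7693210-7693459) from RefSeq on GRCm38.p6, minus strand, with the motif in capitals.
Hspd1: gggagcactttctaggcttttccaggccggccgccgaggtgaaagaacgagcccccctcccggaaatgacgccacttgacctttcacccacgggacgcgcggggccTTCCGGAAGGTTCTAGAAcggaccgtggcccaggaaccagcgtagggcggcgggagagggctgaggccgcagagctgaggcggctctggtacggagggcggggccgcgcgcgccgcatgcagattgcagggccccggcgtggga
Canx: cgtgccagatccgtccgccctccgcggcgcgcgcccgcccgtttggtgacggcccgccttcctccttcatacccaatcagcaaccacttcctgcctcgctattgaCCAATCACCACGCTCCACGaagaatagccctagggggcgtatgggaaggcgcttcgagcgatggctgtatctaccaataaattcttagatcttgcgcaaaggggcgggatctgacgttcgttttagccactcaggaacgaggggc
Asns: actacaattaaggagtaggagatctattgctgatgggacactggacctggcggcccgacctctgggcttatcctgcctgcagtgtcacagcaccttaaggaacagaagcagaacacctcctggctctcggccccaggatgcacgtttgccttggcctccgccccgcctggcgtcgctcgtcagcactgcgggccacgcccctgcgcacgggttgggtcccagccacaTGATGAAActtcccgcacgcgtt
Both strands of promoters of this length were searched for 27025 genes, and a gene counted where any of its promoters held a match. The half-sites GAA, TTC and GAA with 2 bases between them were found in 139 of these genes (0.514%) and in 3 of 27 chaperone genes (Dnajb6, Hspd1 and Hspe1). In Hspd1 the capitals join overlapping matches on the 2 strands. CCAAT and CCACG with 9 bases between them were found in 35 genes (0.13%) and in 8 of 26 genes of the endoplasmic reticulum list. TGATG and AA with 1 base between them were found in 1056 genes (3.91%) and in 3 of those 26. A match describes these letters and does not show binding.

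Hsp90aa1, an inducible HSP90 gene (chromosome 12, positions 110691036 to 110696395), measured 1145, 1407 and 1238 CPM in C, 423, 509.5, 446 and 309 CPM in Hy and 704, 242 and 245 CPM in HE. HE1 lay between the other HE libraries and C, and the groups did not overlap (log2 ratio -1.67 with SE 0.39, edgeR adjusted p = 0.0163). The corrected change was -1.41 (adjusted p = 0.0516), and the call was also lost without C2 (0.0552), without C3 (0.0514), without HE2 (0.062) and in the 7-library fit (0.0993), and alternatives spanned 9.56e-05 to 0.195. Hspd1, the mitochondrial chaperonin whose promoter is shown above, measured 210.2, 261 and 228 CPM in C, 100.0, 122, 85.2 and 79.0 CPM in Hy and 160.1, 76.0 and 85.3 CPM in HE. HE1 was again the highest of its group (log2 ratio -1.12 with SE 0.27, edgeR adjusted p = 0.0191; corrected -1.01 (adjusted p = 0.0511)). The Hspd1 call was lost without C2 (0.0678), without C3 (0.0574), without HE2 (0.0737), without HE3 (0.0655) and in the 7-library fit (0.117), and alternatives spanned 0.000613 to 0.202. Hspb8, a small heat shock protein of muscle (chromosome 5, positions 116408491 to 116422864), measured 145, 121 and 85.8 CPM in C, 65.5, 64.1, 66.1 and 51.3 CPM in Hy and 60.5, 46.0 and 41.5 CPM in HE, with HE1 close to its group (log2 ratio -1.25 with SE 0.21, edgeR adjusted p = 0.00503; corrected -1.47 (adjusted p = 0.00644)). It lost its call in the 7-library fit (0.0565), and alternatives spanned 5.74e-07 to 0.0727. Cct6a, a subunit of the cytosolic chaperonin, fell from 109.7 ± 7.45 CPM in C to 67.2 ± 4.96 CPM in HE (log2 ratio -0.71 with SE 0.13, edgeR adjusted p = 0.00695; corrected -0.62 (adjusted p = 0.0194), with no call in the 7-library fit (0.0586), and alternatives spanned 6.24e-06 to 0.506). Canx, the lectin chaperone calnexin, fell from 336 ± 11.2 CPM in C to 212 ± 35.1 CPM in HE (log2 ratio -0.66 with SE 0.15, edgeR adjusted p = 0.0139). Its corrected change was -0.32 (adjusted p = 0.163), and the call was also lost without C2 (0.0535), without C3 (0.0531), without HE2 (0.0621) and in the 7-library fit (0.113), and alternatives spanned 0.000108 to 0.696. Asns, asparagine synthetase, a target of ATF4, measured 38.0, 41.8 and 36.0 CPM in C, 21.4, 19.3, 20.4 and 18.9 CPM in Hy and 18.5, 15.2 and 20.9 CPM in HE. No HE library reached C (log2 ratio -1.08 with SE 0.14, edgeR adjusted p = 0.00165; corrected -1.04 (adjusted p = 0.00332)), and Asns was called in every alternative, with adjusted p 5.96e-11 to 0.0391.

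Called ribosomal protein genes were all higher in HE, at 16 of 50 (32.0%, against 20.4% of all tested genes called in either direction). The median of the list was 0.44. After correction it was 0.31, with 11 of 50 called higher, against 4.43% of all genes. Every HE library lay above every C library in 43 of 50, against 26.6% of all tested genes. Many of these genes have near-identical copies elsewhere in the genome, so their counts depend on how reads were shared between copies. Rps20 (chromosome 4, positions 3831584 to 3835655) measured 147, 149 and 149 CPM in C, 620.2, 481, 267 and 514 CPM in Hy and 460.5, 542 and 437 CPM in HE. HE lay about as high as most Hy libraries (log2 ratio 1.69 with SE 0.26, edgeR adjusted p = 0.00368; corrected 2.04 (adjusted p = 0.00302)), and the call was lost in the 7-library fit (0.0515), and alternatives spanned 5.41e-09 to 0.0575. Rpl29 measured 0.948, 0.641 and 0.625 CPM in C, 778, 884, 426 and 959.6 CPM in Hy and 773, 755 and 674 CPM in HE. The gene was close to 0 in C alone (log2 ratio 9.94 with SE 0.40, edgeR adjusted p = 1.11e-06), and the part of the separate tabulation in this was not tested. Conversely Rpl37rt, named as a retrotransposed copy of Rpl37, measured 49.7, 34.0 and 45.7 CPM in C, 0.597, 1.12, 0.375 and 0.727 CPM in Hy and 0.403, 0.364 and 0.497 CPM in HE, while Rpl37 itself rose by 0.90 (edgeR adjusted p = 0.0443, and up to 0.146 without any 1 of the C or HE libraries). Rps15, with a transcript GC content of 62.4%, rose by 1.2 (edgeR adjusted p = 0.0359) and had a corrected change of 0.05 (adjusted p = 0.901), and alternatives spanned 0.00049 to 0.976. It lost its call without any 1 of the C or HE libraries (adjusted p up to 0.107). Of 36 tested nuclear genes of the respiratory chain 7 rose and 0 fell, and 6 rose and 2 fell after correction. The share called without correction (19.44%) was near that of all tested genes (20.4%). Ndufb8, a complex I subunit, rose from 54.5 ± 5.90 CPM in C to 121 ± 4.93 CPM in HE (log2 ratio 1.15 with SE 0.22, edgeR adjusted p = 0.00901; corrected 1.25 (adjusted p = 0.00302)) and Cox5b, a complex IV subunit, from 41.5 ± 7.60 CPM in C to 91.3 ± 9.44 CPM in HE (log2 ratio 1.14 with SE 0.23, edgeR adjusted p = 0.0109; corrected 0.93 (adjusted p = 0.00107)). Alternatives spanned 4.28e-05 to 0.109 for Ndufb8 and 0.000108 to 0.13 for Cox5b, and Cox5b lost its call without C3 (0.0514). Neither was called in the 7-library fit (0.0631 and 0.0579).

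**Figure D4:**
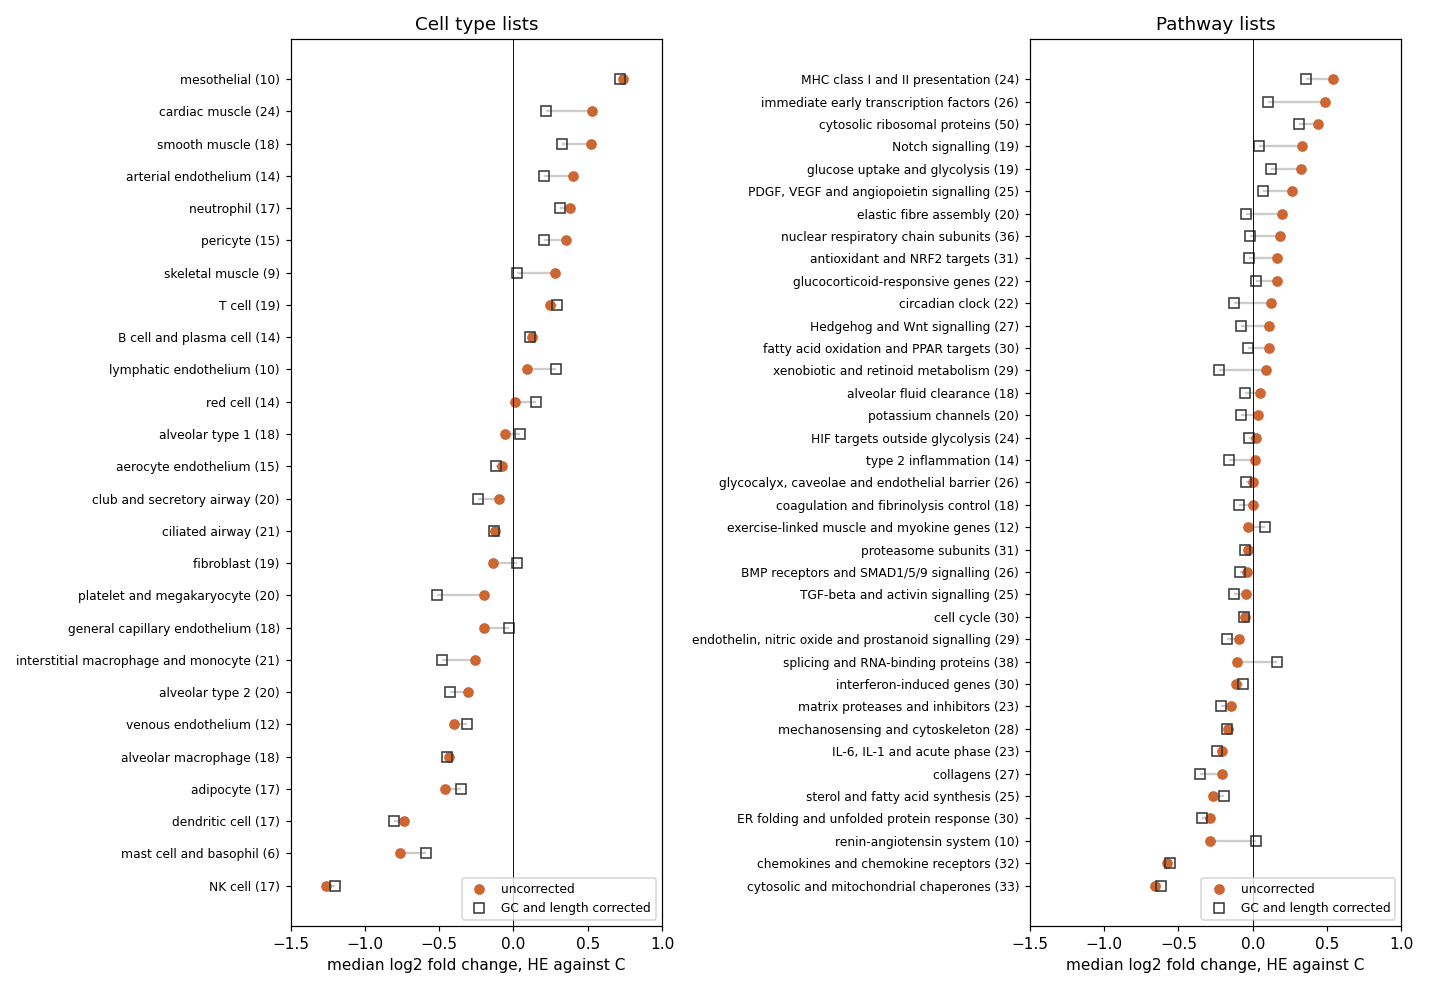
Median log2 fold change of HE against C over the tested members of each cell type and pathway list (number of members in parentheses), without correction (filled circles) and with correction for GC content and length (open squares). NK cell genes lie lowest among cell types at -1.26 and -1.20, and immediate early genes move from 0.49 to 0.10 with the correction.

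Immediate early genes, which answer within minutes to many stimuli, moved with the correction. Of 26 tested 7 rose and 2 fell (34.62% called, against 20.4% of all tested genes), with a median of 0.49. After correction 1 rose (Ier5) and 1 fell (Myc), with a median of 0.10, while 7.59% of all genes were called. Jund, an AP-1 subunit with a transcript GC content of 67.1% (chromosome 8, positions 70697739 to 70700616), measured 216, 184 and 219.8 CPM in C, 816, 565, 622 and 794 CPM in Hy and 566, 620.1 and 377 CPM in HE. The groups did not overlap (log2 ratio 1.34 with SE 0.21, edgeR adjusted p = 0.00455), yet the corrected change was 0.10 (adjusted p = 0.782), and alternatives spanned 1.04e-07 to 0.826. Junb, its relative, rose from 52.9 ± 1.25 CPM in C to 146 ± 32.5 CPM in HE (log2 ratio 1.47 with SE 0.31, edgeR adjusted p = 0.0114) and had a corrected change of 0.63 (adjusted p = 0.0658), and alternatives spanned 6.64e-05 to 0.115. Cebpb, a transcription factor of the acute phase, behaved alike, at 1.92 without and 0.67 with correction (edgeR adjusted p = 0.0048 and 0.0967, and alternatives spanned 7.77e-08 to 0.184). Among 38 tested splicing genes 4 rose and 5 fell, a share (23.68%) near the 20.4% of all tested genes. Srsf5, a splicing factor, rose from 146 ± 4.47 CPM in C to 247 ± 28.9 CPM in HE (log2 ratio 0.76 with SE 0.12, edgeR adjusted p = 0.00452). Its corrected change was 1.13 (adjusted p = 0.000832), and alternatives spanned 3.62e-08 to 0.321. Sfpq, a splicing factor of paraspeckles, fell, at 216, 231 and 238 CPM in C and 144, 126 and 105 CPM in HE (log2 ratio -0.87 with SE 0.14, edgeR adjusted p = 0.00458; corrected -0.87 (adjusted p = 0.00749), and alternatives spanned 6.57e-08 to 0.172). Srsf5 and Sfpq lost their calls in the 7-library fit (0.06 and 0.0535).

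Among growth factors, Fgf2, basic fibroblast growth factor, which overlaps another gene (chromosome 3, positions 37348477 to 37410106), measured 0.613, 0.990 and 0.568 CPM in C, 12.2, 10.7, 15.2 and 6.85 CPM in Hy and 11.8, 11.5 and 12.7 CPM in HE. It rose in all libraries of HE (log2 ratio 4.04 with SE 0.34, edgeR adjusted p = 0.000125). The corrected change was 4.42 (adjusted p = 1.07e-05). Fgf2 was called under every alternative that tested it, with adjusted p 1.97e-23 to 0.00724, but the fits of genes without an overlapping gene did not test it. Pgf, placental growth factor, a ligand of the VEGF family (chromosome 12, positions 85166637 to 85177785), measured 3.12, 3.09 and 3.07 CPM in C, 5.61, 17.7, 11.3 and 15.2 CPM in Hy and 13.8, 13.2 and 8.66 CPM in HE. The C libraries were nearly equal and lay below the others (log2 ratio 1.94 with SE 0.38, edgeR adjusted p = 0.00894; corrected 1.55 (adjusted p = 0.0338)). Its call was lost in the 7-library fit (0.0582), and alternatives spanned 3.24e-05 to 0.15. Tyms, thymidylate synthase, which makes the thymine nucleotide for DNA (chromosome 5, positions 30038546 to 30073645), measured 20.1, 18.7 and 20.2 CPM in C, 6.57, 5.48, 4.74 and 5.33 CPM in Hy and 5.06, 5.88 and 5.30 CPM in HE. It fell without overlap (log2 ratio -1.86 with SE 0.17, edgeR adjusted p = 0.00022). The corrected change was -1.69 (adjusted p = 0.000312), and Tyms was called in every alternative that tested it, with adjusted p 1.32e-22 to 0.0277. Ccnd2, cyclin D2, fell from 235 ± 3.77 CPM in C to 98.8 ± 5.26 CPM in HE (log2 ratio -1.25 with SE 0.28, edgeR adjusted p = 0.0155; corrected -1.04 (adjusted p = 0.0313)), but was not called without C3 (0.0505), without HE1 (0.0503) and without HE2 (0.0617), and alternatives spanned 0.000212 to 0.143. These were the only 2 called of 30 tested cell cycle genes (6.67%, against 20.4% of all tested genes). Actb, cytoplasmic actin, fell from 1943 ± 260.1 CPM in C to 1169 ± 72.0 CPM in HE (log2 ratio -0.73 with SE 0.16, edgeR adjusted p = 0.0149; corrected -0.86 (adjusted p = 0.0333)), but was not called without C1 (0.0617), without C2 (0.0511), without HE2 (0.0631) and in the 7-library fit (0.119), and alternatives spanned 1.73e-05 to 0.528. Lmna, which encodes the lamins A and C of the nuclear envelope, rose from 162 ± 16.6 CPM in C to 306 ± 20.0 CPM in HE (log2 ratio 0.92 with SE 0.18, edgeR adjusted p = 0.00974; corrected 0.77 (adjusted p = 0.0225), with no call in the 7-library fit (0.0581), and alternatives spanned 5.5e-05 to 0.22).

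Only 119 of the 3013 calls, 73 higher and 46 lower, held in every alternative that tested the gene, here including the stricter 1.5-fold test. Of those without an overlapping gene, with at least 5 CPM on average and a proper name, the 8 with the greatest change upward were Rpl29, Uprt, Cystm1, Uhmk1, Ppp1r14a, Zfp369, Rel and Rpl34. Rel, a subunit of NF-kappaB, measured 1.73, 2.27 and 2.78 CPM in C, 12.3, 13.4, 23.7 and 12.1 CPM in Hy and 12.9, 9.63 and 10.4 CPM in HE. HE stayed above C throughout (log2 ratio 2.28 with SE 0.31, edgeR adjusted p = 0.00213; corrected 2.67 (adjusted p = 0.000129), and alternatives spanned 3.21e-09 to 0.0399). Uhmk1, a kinase that acts on splicing factors, rose, at 10.2, 11.5 and 11.3 CPM in C and 74.4, 83.0 and 96.4 CPM in HE, and Cystm1, a small membrane protein gene, rose from 15.8 ± 0.663 CPM in C to 139.9 ± 9.19 CPM in HE (edgeR adjusted p = 0.000277 and 1.16e-06). The 8 with the greatest change downward were Rpl37rt, Zfp488, Olfr613, Dpy19l4, Zfp65, Ces2b, Tyms and Pggt1b. Zfp488, a zinc finger gene, fell from 205 ± 20.4 CPM in C to 6.58 ± 0.508 CPM in HE and Pggt1b, a subunit of a protein prenyltransferase, from 54.4 ± 6.37 CPM in C to 15.7 ± 1.09 CPM in HE (edgeR adjusted p = 1.25e-05 and 0.00188). Ces2b, a carboxylesterase, measured 8.48, 9.84 and 9.43 CPM in C, 3.46, 2.83, 1.94 and 2.36 CPM in Hy and 2.19, 2.30 and 2.59 CPM in HE. Its HE and Hy values lay together, well under C (log2 ratio -1.97 with SE 0.25, edgeR adjusted p = 0.00158).

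Extreme fold changes were few. At least 32-fold were 35 called genes (0.237% of those tested), 23 of which overlap another gene (65.7%, against 46.9% of all tested genes). The 3 with the greatest rise were at 0 in all C libraries. With 3 counts per library as the floor, Rpl32l was at least 105.9-fold higher in HE, LOC100862468 at least 100.4-fold and the gene with identifier 108167725, which has no symbol here, at least 67.4-fold. The 3 with the greatest fall were at 0 in all HE libraries: Rpl31-ps12 was at least 82.6-fold lower, Entpd4 at least 65.8-fold and Gpr17 at least 38.6-fold. Entpd4 was also at 0 in 2 of the 4 Hy libraries, and its call was lost without C2 (0.0522), C3 (0.0541), HE1 (0.0551) or HE2 (0.06) and in the 7-library fit (0.107). These bounds cover counting error only.

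**Figure D5:**
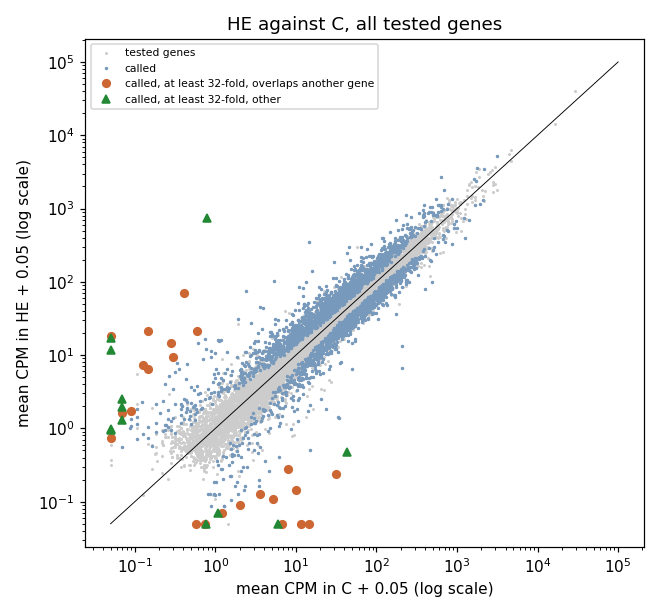
Mean level in HE against mean level in C for the 14766 tested genes, in CPM with 0.05 added, on log axes. Of the 35 called genes at least 32-fold apart, the 23 that overlap another gene are circles and the others triangles, and most have a mean near 0 in one group.

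No gene was called between HE and Hy by the main test. Over the same 14766 genes edgeR called 0 between HE and Hy, with 734 at an unadjusted p below 0.05, and limma-voom called 0 and DESeq2 48. Against C, Hy had 3850 calls (26.1%), and both comparisons share the 3 C libraries. For the genes above with all Hy libraries printed, the values of Hy thus show where HE lies between or beyond them, and the difference between HE and Hy was not called for any of them.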

How the data were processed

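Lung RNA libraries of C (3), Hy (4) and HE (3) were grouped by their titles. The files as deposited hold estimated counts for each Entrez gene, not normalised, most of them whole numbers. HISAT2 2.0.4, Bowtie2 2.2.5, RSEM 1.2.12, DESeq 1.4.5 and build GRCm38.p6 are named per the submitters' processing notes, with roles not given in the sources used here. Poly(A) RNA was selected, and strand handling is not given, per the labels' protocols.

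Counts were rounded, and genes valued in every library were filtered with filterByExpr and fitted with edgeR 4.0.16 (R 4.3.3): TMM factors, robust quasi-likelihood test, all 3 groups in one fit, 7 residual degrees of freedom, Benjamini-Hochberg adjustment. The common biological coefficient of variation was 26.9%. Symbols and positions came from RefSeq on GRCm38.p6, transcript GC content and length from the longest GENCODE M21 transcript. The corrected fit put a smooth trend of each library with GC content and length into the offsets.

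Alternatives were DESeq2 1.42.0, limma-voom 3.58.1, RLE factors, other filters (none, at least 1 CPM in 3 libraries, a mean of 10 CPM), a 1.5-fold threshold, C and HE alone, a replicate block, each library left out, no C1, Hy4 and HE3, and genes without an overlapping gene. The fits were also run on simulated counts, with the same spread for every gene and group and either no GC trend or a linear one. These settings are simpler than the data, so no result here rests on that run.

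Members and lists were chosen with earlier results of these data known. Named genes were 20 preset core genes and the 3 extremes each way. To these came the 8 genes each way with the largest change that met the conditions given in the text and were called in every alternative that tested them. The 2 members with the smallest p of each list with at least 3 calls in one direction were named as well. Other members named in the text were chosen after their values were seen.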

Additional observations from a re-analysis of the deposited data

Results flagged for a closer look

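Genes with a value in one tabulation alone entered no comparison, and both sets held RNA. The 491 genes valued in Hy and HE alone summed to 1467 CPM on average over the HE libraries, with 98 of them at 1 CPM or more and 27 at 10 CPM or more. The 1248 genes valued in C alone summed to 107.8 CPM on average over the C libraries, 825 of them at 0 and 19 at 1 CPM or more. Among the first set C030002A05Rik measured 133, 114 and 143 CPM in HE, whereas Gm15501 measured 429, 0.117 and 172 CPM. Gm38947, a long noncoding RNA, led the second set at 21.1, 18.1 and 22.6 CPM in C. No C value exists for the first set and no HE value for the second, so no difference was computed.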

How the results depend on the processing

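The main fit called 3013 genes, 1734 higher and 1279 lower, 928 of them at least 2-fold. DESeq2, limma-voom, RLE factors, no filter and 1 CPM in 3 libraries gave these counts within 1.5 times. With a mean of 10 CPM, 555 were called at least 2-fold. The 1.5-fold threshold called 292 (194 higher, 98 lower, 291 at least 2-fold), and C and HE alone 5408 (2667 and 2741). Leaving out 1 library gave 1014 (without C3) to 4712 (without Hy3) calls, 630 to 2493 higher, 345 (without HE2) to 2219 lower and 533 to 1065 at least 2-fold, with fewer residual degrees of freedom. Without C1, Hy4 and HE3 there were 498 (342 and 156, 379 at least 2-fold), and on 7823 genes without an overlapping gene 1587 (924 and 663, 485 at least 2-fold).

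With the GC and length correction, added after the data were seen, 1107 were called (647 and 460, 397 at least 2-fold). With C and HE alone the corrected fit called more, 2335 (1190 and 1145, 561 at least 2-fold). Corrected fits gave 508 (319 and 189, 183 at least 2-fold) without overlapping genes, and 177 (115 and 62, 151 at least 2-fold) without C1, Hy4 and HE3. The cause of these shifts was not tested beyond the smaller sets of genes and libraries. No named gene that was called changed direction. Of those not called, Ednra went from -0.09 to 0.07, Scgb1a1 from 0.50 to -0.02 and the core gene Hba-a1 from 0.315 to -0.40 with the correction.

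Replicate numbers did not pair C with HE: same-numbered libraries correlated at -0.10, 0.19 and -0.26 in their deviations from the group means. With the replicate block on C and HE alone, 3693 genes were called (1857 higher, 1836 lower) at 2 residual degrees of freedom. Depth limits genes of a few counts, where 3 counts amount to about 0.173 CPM in HE.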
